A study of Mus musculus with 6 samples.

Results

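The 35 genes described here are classical type I interferon stimulated genes. They were chosen by name, as genes known to respond to interferon, and are 35 of the 55421 genes counted in the libraries. All 35 passed the filter on low counts, as did 13849 genes in all. Monocytes were isolated from the spleens of 6 mice, 3 of the genotype IL-4Rα+/+ and 3 of the genotype IL-4Rα-/-, with 1 library per mouse. The IL-4Rα-/- animals lacked the alpha chain of the IL-4 receptor in every cell of the body, which is also a part of an IL-13 receptor, and both genotypes were on the C57BL/6 strain, untreated. The labels give no age or sex, and the study's methods give an age range of young adult mice for all its animals. The cells were enriched by negative selection, so whatever the antibody cocktail did not remove stayed in the sample. The study asked how the absence of IL-4Rα changes the transcriptome of these monocytes, and the comparison below reads its interferon response.

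Type I interferons bind the receptor pair IFNAR1 and IFNAR2, which activates the kinases JAK1 and TYK2. These phosphorylate STAT2, which joins IRF9 in the complex ISGF3, and the complex binds a DNA element called the interferon-stimulated response element (ISRE). The genes behind this element encode sensors of foreign nucleic acid, proteins that block viral RNA and its translation, and the transcription factors and inhibitors that amplify or end the response. Monocytes carry a low, constant level of these transcripts without infection and raise it strongly when interferon is present.

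The element is visible in the promoters of the genes. A RefSeq table for GRCm38.p6 held a promoter window of 300 bases, from 250 before to 50 after the start site, for 25 of the 35 genes. The core of the ISRE was searched as GAAA, any 2 bases and GAAA again, on both strands and with overlapping matches counted. It was found for 13 of these 25 genes (52%) and for 1079 of the 27025 genes of the whole table (3.99%). A gene with several windows counted once, if any of them held a match. The 6 promoters below belong to genes named again further on. They were chosen to show 2 arrangements: a pair of separate cores (Ifit3, Ifit3b, Ifit1) and overlapping cores (Isg15, Oas1a). The 1 core of Rsad2 is given for comparison. Each line gives the 200 bases before the start site, 5′ to 3′ on the strand of the gene, with matches to the core in capitals. A core that lies on the opposite strand reads TTTC, any 2 bases and TTTC here.
Ifit3: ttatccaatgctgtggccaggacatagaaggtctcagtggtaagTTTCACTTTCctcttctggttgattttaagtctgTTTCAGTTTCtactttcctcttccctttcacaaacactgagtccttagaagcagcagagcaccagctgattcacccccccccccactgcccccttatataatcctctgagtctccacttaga
Ifit3b: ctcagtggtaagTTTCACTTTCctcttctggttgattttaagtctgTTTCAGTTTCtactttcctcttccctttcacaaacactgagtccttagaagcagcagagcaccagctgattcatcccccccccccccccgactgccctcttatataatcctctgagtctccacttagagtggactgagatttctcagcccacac
Rsad2: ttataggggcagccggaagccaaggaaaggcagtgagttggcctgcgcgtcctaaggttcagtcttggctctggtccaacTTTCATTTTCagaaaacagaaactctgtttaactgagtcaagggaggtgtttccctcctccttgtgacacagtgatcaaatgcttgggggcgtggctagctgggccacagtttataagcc
Ifit1: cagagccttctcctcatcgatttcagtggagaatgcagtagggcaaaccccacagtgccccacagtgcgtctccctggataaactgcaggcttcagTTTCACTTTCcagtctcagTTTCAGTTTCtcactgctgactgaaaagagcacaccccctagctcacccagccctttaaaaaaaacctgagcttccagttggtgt
Isg15: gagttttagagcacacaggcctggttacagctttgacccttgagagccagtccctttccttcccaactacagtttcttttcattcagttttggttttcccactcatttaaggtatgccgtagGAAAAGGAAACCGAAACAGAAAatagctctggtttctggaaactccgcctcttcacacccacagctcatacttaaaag
Oas1a: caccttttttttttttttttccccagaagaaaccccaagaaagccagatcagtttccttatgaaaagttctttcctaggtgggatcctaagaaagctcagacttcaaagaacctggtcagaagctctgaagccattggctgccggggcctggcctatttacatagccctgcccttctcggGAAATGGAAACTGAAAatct
The windows lie at chr19:34583329-34583528 on the plus strand for Ifit3, chr19:34607757-34607956 on the plus strand for Ifit3b, chr12:26456453-26456652 on the minus strand for Rsad2, chr19:34640689-34640888 on the plus strand for Ifit1, chr4:156200819-156201018 on the minus strand for Isg15 and chr5:120907526-120907725 on the minus strand for Oas1a. The full windows of 300 bases of Ifit3 and Ifit3b shared an unbroken run of 169 identical bases, which held both cores of each gene. Part of that run lies before the printed bases. The cores of Isg15 were 3 overlapping matches that began 78, 72 and 66 bases before the start site, and those of Oas1a were 2 overlapping matches that began 20 and 14 bases before it. In Ifih1, Ddx58 and Eif2ak2 the core lay after the start site, as the plot of motif positions shows. The other element searched, the gamma-activated sequence of the interferon gamma response (TTCNNNGAA), was found for 6 of the 25 genes (24%) and for 9.55% of all genes of that table. A match is a stretch of letters, not a measured binding site.

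**Figure D1:**
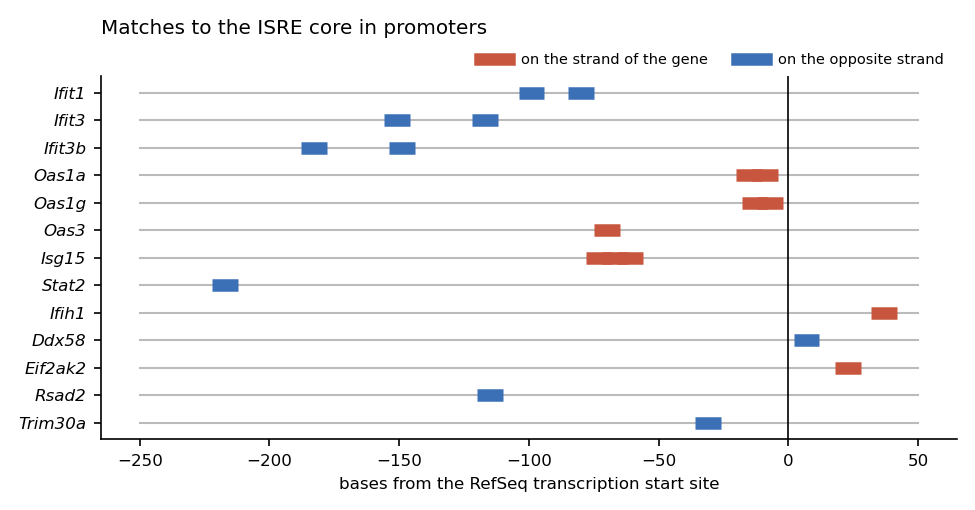
Position of every match to the ISRE core (GAAA, any 2 bases, GAAA) in the promoters of the 13 interferon stimulated genes that had one, in bases from the RefSeq start site (0). Red bars lie on the strand of the gene and blue bars on the opposite strand. Matches of 10 of the 13 genes lay before the start site of the plotted transcript.

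The 6 libraries held between 26807281 and 29033297 reads on genes. Il4ra, the targeted gene, was at 137, 128 and 177 CPM (reads scaled to library size with the TMM factors of edgeR) in the IL-4Rα+/+ libraries and at 27.9, 79.4 and 31.8 CPM in the IL-4Rα-/- libraries. The genotypes did not overlap, although IL-4Rα-/- library 2 kept more Il4ra reads than the other two. Which exons the knockout allele lacks was not analysed here. The log2 fold change was -1.67 ± 0.41 (SE, n = 3 mice per genotype), with an exact two-sided permutation p = 0.1, the smallest that 3 against 3 can give. IL-4Rα+/+ library 1 and IL-4Rα-/- library 3 carried Xist at 553 and 457 CPM and next to no Y chromosome transcripts, and the other 4 libraries carried Y chromosome transcripts, so the sexes were mixed within each genotype. The summed level of 8 monocyte markers was 16004.5 to 22598.4 CPM in IL-4Rα+/+ and 18749.4 to 23233.3 CPM in IL-4Rα-/- libraries. Most of that sum was Lyz2 (8846.7 to 17025.4 CPM over the 6 libraries). Of the 8 markers, 4 had fitted values above 0 and 4 below, so the sum does not stand for each of them. None of the genes tested was called at an adjusted p under 0.15 in edgeR's quasi-likelihood test (0 of 13849, 0.00%), 1120 genes (8.09%) had an unadjusted p under 0.05, and DESeq2 called 81 genes of the 13745 it gave an adjusted p.

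All 35 interferon stimulated genes were expressed in every library, with between 151 and 64611 reads per gene and library. Per length of merged exons, Ifi27l2a, a small mitochondrial protein, was highest with a mean of 703 RPKM (CPM per kilobase of exon) over the 6 libraries. Samhd1, which hydrolyses deoxynucleotides and so starves viruses of them, followed at 213 RPKM. Irf7, the transcription factor that drives interferon production, came next at 110 RPKM. These 3 lay above all others in the order of means, and the lowest were Ifit3b at 7.49, Herc6 at 5.34 and Ifi44 at 1.75 RPKM. Between these ends the levels ran together. Of the 34 pairs of neighbours in the order, 8 pairs kept their order in all 6 libraries, and the other neighbours crossed in at least 1 library. The order depends on the length of merged exons, which can exceed that of the transcript present. Herc6, with 9292 such bases, was at 46.8 to 54.6 CPM, above Ifit1 at 20.1 to 36.3 CPM.

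**Figure D2:**
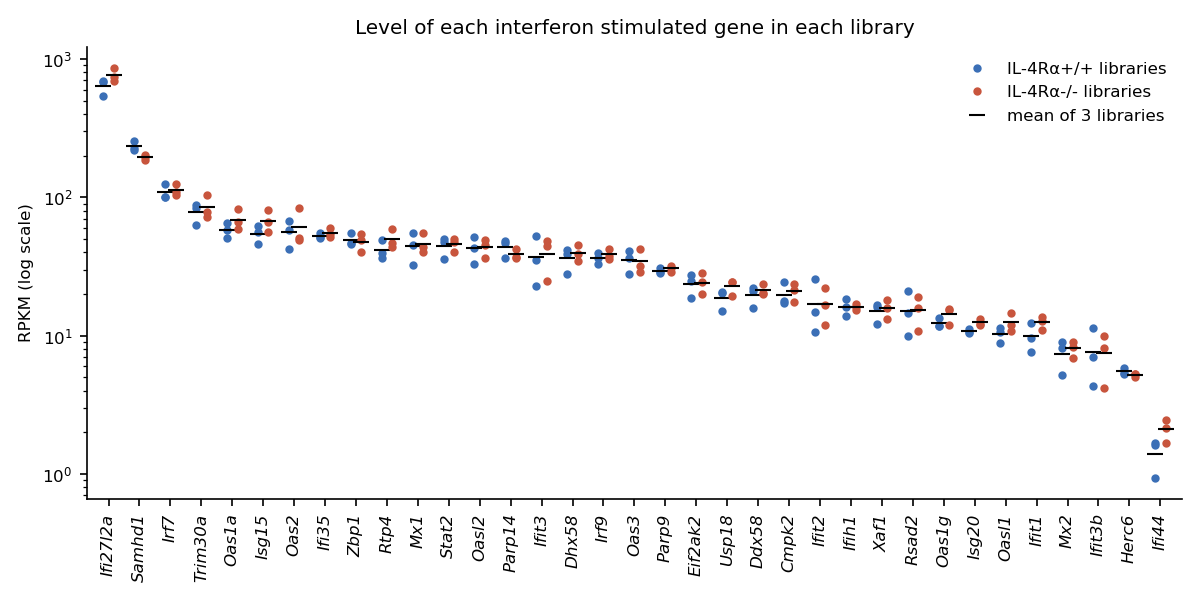
Level of the 35 interferon stimulated genes in RPKM (log scale) in each of 3 IL-4Rα+/+ and 3 IL-4Rα-/- libraries, ordered by mean level. Points are libraries and black marks are means of 3 libraries. Levels span from 1.75 RPKM for Ifi44 to 703 RPKM for Ifi27l2a, and the points of both genotypes share the same range for most genes.

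No interferon stimulated gene was called between the genotypes. The smallest adjusted p among the 35 was 0.618 in edgeR and 0.431 in DESeq2. An unadjusted p under 0.05 was reached by 2 of the 35 (5.71%), against 8.09% of all genes tested. These were Samhd1, with a lower fitted level in IL-4Rα-/- monocytes (4.37% of all genes in that direction), and Isg20, with a higher one (3.72% of all genes). DESeq2 also gave 2 of the 35 an unadjusted p under 0.05, Samhd1 and Ifi44, against 4.70% of all its genes. That share is over 25728 genes with no filter on low counts, so it is not comparable with the 8.09% of edgeR. With the replicate number as a block, the edgeR count was 6, against 5.52% of all genes, and Samhd1 and Isg20 were not among them. The fitted log2 fold change was above 0 for 27 of the 35, against 51.5% of all genes, and the median was 0.08 against 0.01 for all genes. These are values of poly(A)-selected RNA from a cell population, in which fewer expressing cells and less RNA per cell cannot be told apart. The 95% interval of the difference lay within a log2 fold change of 1 in either direction for 33 of the 35 genes, all but Ifit3b and Ifi44, and within 0.5 for 17.

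**Figure D3:**
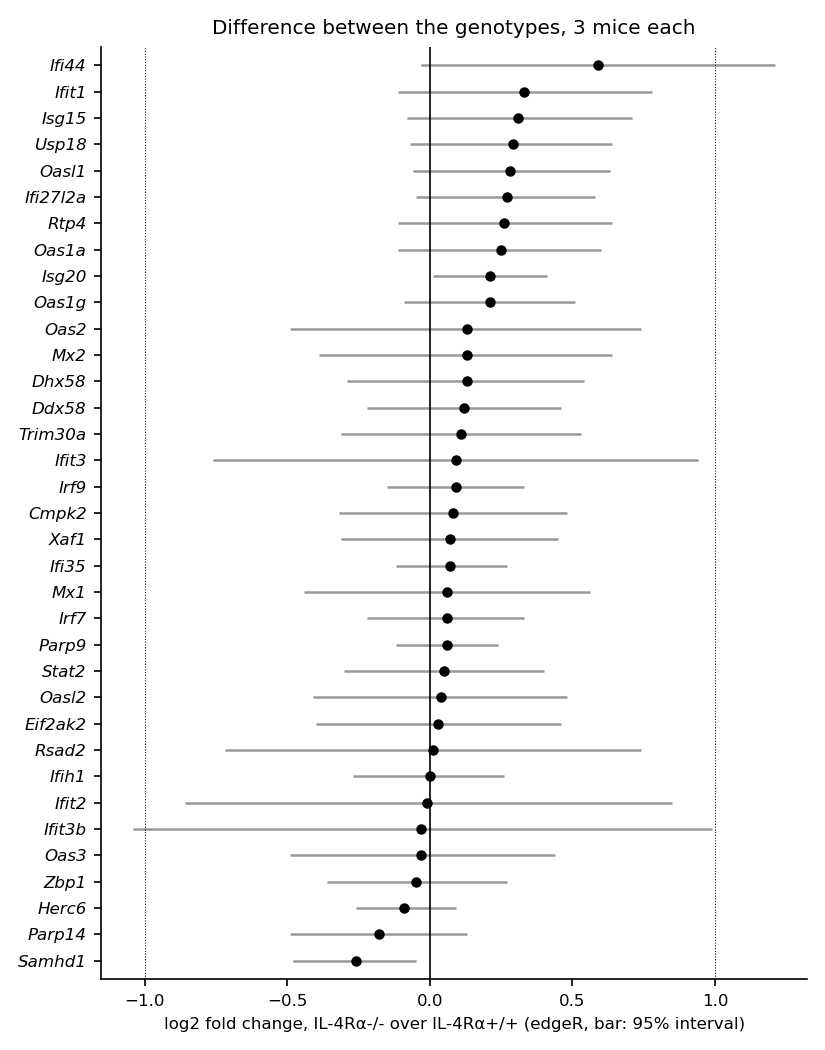
Fitted log2 fold change of IL-4Rα-/- over IL-4Rα+/+ for the 35 genes (points) with its 95% interval (bars), from edgeR with 3 mice per genotype. Dotted lines mark a log2 fold change of 1 in either direction. The largest value is 0.59 for Ifi44, and the intervals of 33 genes include 0, all but those of Samhd1 and Isg20.

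Genes of nucleotide and RNA metabolism held both genes with an unadjusted p under 0.05. Samhd1 was at 2062.7, 2337.5 and 1992.0 CPM in IL-4Rα+/+ and at 1692.2, 1774.4 and 1862.3 CPM in IL-4Rα-/- libraries. All 3 IL-4Rα-/- libraries lay below the lowest IL-4Rα+/+ library. The log2 fold change was -0.26 ± 0.09 (SE), with an edgeR adjusted p of 0.618. Isg20, an exonuclease that degrades viral RNA, showed the reverse order at a far lower level in CPM. Its levels were 20.7, 19.9 and 19.3 CPM in IL-4Rα+/+ and 22.7, 22.3 and 24.5 CPM in IL-4Rα-/- libraries, a log2 fold change of 0.21 ± 0.08 (SE) with an edgeR adjusted p of 0.618. Rsad2 (viperin), which makes a chain-terminating nucleotide, and its neighbour Cmpk2, a mitochondrial nucleotide kinase, had log2 fold changes of 0.01 and 0.08.

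Non-overlapping levels were found for 5 of the 35 genes, against 15.5% of all genes tested. The IL-4Rα-/- libraries were higher for 3 of them, against 7.63% of all genes, and lower for 2, against 7.87%. Besides Samhd1 and Isg20 these were Ifi44, Ifi27l2a and Herc6. Ifi44, an antiviral protein with a low transcript level, was at 10.2, 9.88 and 5.70 CPM in IL-4Rα+/+ and at 13.2, 10.3 and 15.1 CPM in IL-4Rα-/- libraries. The gap between the genotypes was narrow and the spread within each was wide. It had the largest difference of the 35, a log2 fold change of 0.59 with a 95% interval of -0.03 to 1.21 and an edgeR adjusted p of 0.618. Ifi27l2a was at 251, 321 and 315 CPM in IL-4Rα+/+ and at 321, 401 and 343 CPM in IL-4Rα-/- libraries, so that the lowest IL-4Rα-/- and the highest IL-4Rα+/+ library were nearly level. Its log2 fold change was 0.27 ± 0.13 (SE). Herc6, the ligase that attaches ISG15 to proteins in mice, was at 49.9, 54.6 and 48.8 CPM in IL-4Rα+/+ and at 46.8, 48.8 and 48.8 CPM in IL-4Rα-/- libraries. With size factors of the RLE method or scaling to total reads its ranges overlapped, which left 4 genes.

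The ISG15 system tags proteins with a ubiquitin-like modifier. Isg15, the modifier itself, was at 34.5, 47.0 and 42.1 CPM in IL-4Rα+/+ and at 42.6, 60.8 and 50.1 CPM in IL-4Rα-/- libraries. Usp18, which removes ISG15 and blocks the interferon receptor, was at 42.3, 56.3 and 57.2 CPM and at 54.1, 68.3 and 67.6 CPM. For both genes the IL-4Rα+/+ library 1 was the lowest of all 6, and the genotypes overlapped. The log2 fold changes were 0.31 ± 0.16 and 0.29 ± 0.15 (SE), with edgeR adjusted p-values of 0.635 for both.

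The IFIT genes, whose proteins bind foreign RNA caps and stop translation, gave 2 positive and 2 negative fold changes. Ifit1 was at 20.1, 32.9 and 25.7 CPM in IL-4Rα+/+ and at 29.2, 33.7 and 36.3 CPM in IL-4Rα-/- libraries, a log2 fold change of 0.33 ± 0.19 (SE, edgeR adjusted p = 0.642). Ifit3 varied far more within each genotype. It was at 60.9, 92.1 and 39.7 CPM in IL-4Rα+/+ and at 77.9, 43.2 and 83.8 CPM in IL-4Rα-/- libraries, a log2 fold change of 0.09 ± 0.36 (SE). Ifit3b followed it closely at 14.1, 22.6 and 8.64 CPM and 16.3, 8.37 and 19.9 CPM, with a log2 fold change of -0.03 ± 0.42 (SE). For Ifit2, Ifit3 and Ifit3b the highest library of all was IL-4Rα+/+ library 2, and the lowest was IL-4Rα+/+ library 3 or IL-4Rα-/- library 2. The 2 genes with the near-identical promoters printed above also share transcript sequence: 41.1% of the distinct stretches of 75 bases in Ifit3, the length of a read, occur in Ifit3b. Reads from such stretches map to more than 1 place and were not counted, so the levels of Ifit3, Ifit3b and likewise Oas1a and Oas1g (47.6% and 36.9% shared) are uncertain. Smaller shares were found for Herc6 (11.3%, mainly with Gm45193) and Rtp4 (10.5%, with Gm45338). Both partners are annotated genes that overlap them, so the levels of Herc6 and Rtp4 are less certain too.

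The 6 OAS genes make the second messenger that activates the RNA-cutting enzyme RNase L, or are enzymatically inactive relatives. Their log2 fold changes ran from -0.03 for Oas3 to 0.28 for Oasl1, with 5 above 0 and none at an unadjusted p under 0.05. Oasl1, an inhibitor of Irf7 translation, was at 23.2, 29.5 and 27.5 CPM in IL-4Rα+/+ and at 28.1, 38.2 and 31.1 CPM in IL-4Rα-/- libraries. The genotypes overlapped, and the log2 fold change was 0.28 ± 0.14 (SE, edgeR adjusted p = 0.632). Mx1, a GTPase that traps viral nucleoproteins, was at 123, 209 and 172 CPM and at 153, 164 and 208 CPM, which left a log2 fold change of 0.06 ± 0.21 (SE). Its relative Mx2 had 0.13 ± 0.22.

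The transcription factors of the response were close to equal in both genotypes. Irf7 was at 382, 467 and 377 CPM in IL-4Rα+/+ and at 393, 415 and 467 CPM in IL-4Rα-/- libraries, with the same highest value on each side. Irf9, the DNA-binding part of ISGF3, was at 177, 195 and 214 CPM and at 194, 226 and 204 CPM. Stat2, its partner, was at 213, 294 and 281 CPM and at 238, 298 and 281 CPM. Their log2 fold changes were 0.06 ± 0.12, 0.09 ± 0.10 and 0.05 ± 0.15 (SE), with 95% intervals that reached from -0.30 to 0.40 at their widest. Irf9 shares exons with Rnf31 on the same strand and Irf7 overlaps Phrf1 on the other strand, so reads at those ends may belong to the neighbour.

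The remaining genes gave small differences as well. The 5 sensors of foreign nucleic acid, Ifih1 (MDA5), Ddx58 (RIG-I), Dhx58 (LGP2), Zbp1 and Eif2ak2 (PKR), had log2 fold changes from -0.05 to 0.13, and none had an unadjusted p under 0.05. Parp9 and Parp14, which work in ADP-ribosylation, had 0.06 and -0.18. Of the 6 other effectors all had values above 0, from 0.07 for Xaf1 and Ifi35 to 0.59 for Ifi44, none at an unadjusted p under 0.05 in edgeR.

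For most of the genes the spread within a genotype was wider than the difference between the genotypes. The fold change was smaller than the range of the IL-4Rα+/+ libraries, both on the log2 scale, for 32 of the 35 genes, as it was for 83.7% of all genes tested. The ratio of the highest to the lowest library ran from 1.13 for Parp9 to 2.70 for Ifit3b, with a median of 1.56, against 1.47 over all genes tested. IL-4Rα+/+ library 1 was the lowest of all 6 libraries for 24 of the 35 genes, against 21.3% of all genes. IL-4Rα-/- library 2 was highest for 17, against 24.8% of all genes, and IL-4Rα+/+ library 2 for 12, against 17.3%.

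The genes were read for 2 patterns in the order of libraries, of which only the first was more frequent than over all genes. In 24 genes (68.6%, against 16% of all genes tested) the lowest library was IL-4Rα+/+ library 1 among its genotype and IL-4Rα-/- library 1 among the other. These include Isg15, Usp18, Mx1, Stat2, Irf9, all sensors and every OAS gene but Oas1g. In 6 genes, Ifit2, Ifit3, Ifit3b, Rsad2, Isg20 and Ifi44 (17.1%, against 24.2% of all genes), the lowest were instead IL-4Rα+/+ library 3 and IL-4Rα-/- library 2. In the same libraries the summed CPM of 6 markers of Ly6C high monocytes was 1266.3, 3013.4 and 7222.1 in IL-4Rα+/+ and 2873.6, 9347.8 and 3312.3 in IL-4Rα-/- mice. The sum of 8 markers of Ly6C low monocytes ran the other way, at 7708.7, 6208.3 and 3475.0 and at 5306.8, 2400.2 and 5057.5 CPM. The libraries lowest in the larger pattern were thus the lowest of their genotype in the sum of Ly6C high markers. Those lowest in the smaller pattern were the highest in that sum. Not every marker followed its sum. In IL-4Rα-/- libraries 1 and 3, Vcan was at 136 and 98.0 CPM and Chil3 at 487 and 291 CPM. Of the Ly6C low markers, Nr4a1, Cx3cr1 and Cd36 were lower in IL-4Rα-/- library 1 than in library 3. Between the genotypes, all 6 Ly6C high markers had fitted log2 fold changes above 0 (median 0.44) and all 8 Ly6C low markers below 0 (median -0.41), none at an unadjusted p under 0.05. None of these marker genes was at 0 in all libraries, and their part in the levels of the interferon stimulated genes was not tested.

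**Figure D4:**
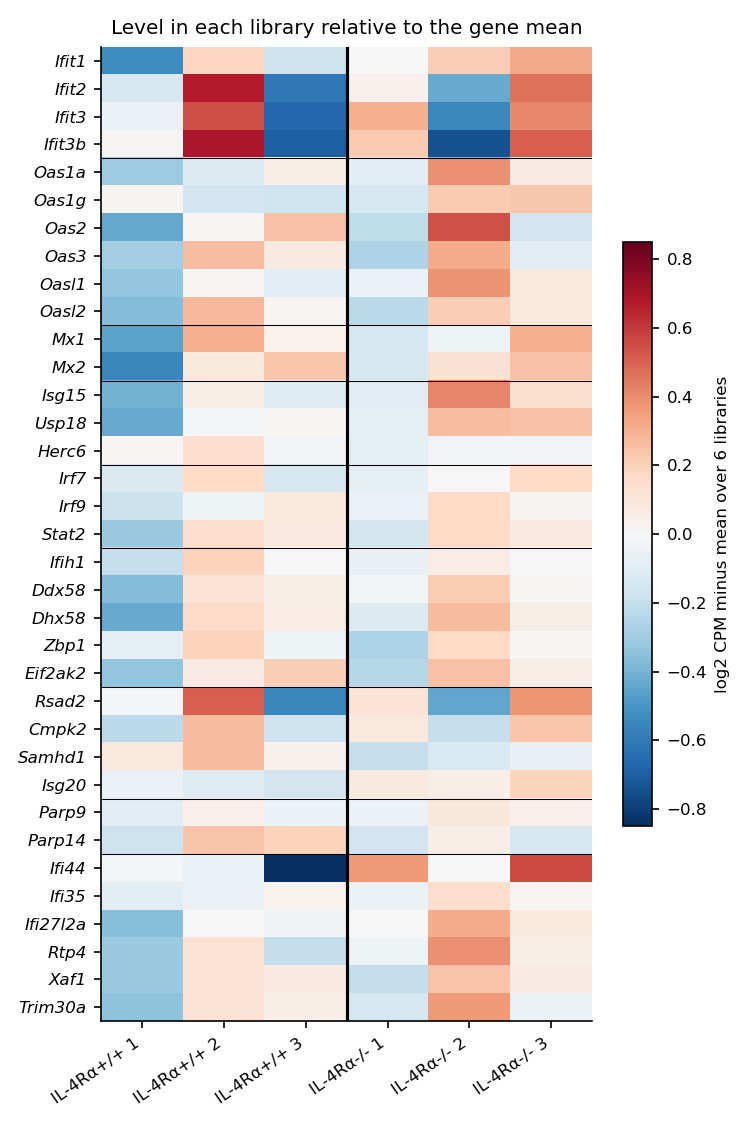
Log2 CPM of each of the 35 genes in each library minus the mean of that gene over the 6 libraries, with the IL-4Rα+/+ mice in the left 3 columns and the IL-4Rα-/- mice in the right 3 (numbers are replicates) and rows grouped by role. IL-4Rα+/+ library 1 is the lowest of 6 in 24 genes, while Ifit2, Ifit3, Ifit3b and Rsad2 are lowest in IL-4Rα+/+ library 3 or IL-4Rα-/- library 2.

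The lean towards higher values in IL-4Rα-/- monocytes depended on which IL-4Rα+/+ libraries were in the fit. IL-4Rα+/+ library 1 was the lowest of all 6 for 24 of the 35 genes, so its removal lowers their fold changes in any case. Without it, 15 of the 35 genes had a fold change above 0 (against 51.6% of all genes) and 20 below, with a median log2 fold change of -0.02. Without IL-4Rα+/+ library 2, 32 of the 35 were above 0 (against 51.6% of all genes) and 3 below, with a median of 0.20. Leaving out any of the other libraries gave 23 to 29 of the 35 above 0, against 48.4 to 51.6% of all genes. The size of the larger differences depended on single libraries too. Without IL-4Rα+/+ library 1 the log2 fold change of Ifit1 was 0.17, that of Isg15 0.20, that of Usp18 0.16 and that of Ifi27l2a 0.16. Without IL-4Rα-/- library 2 those of Isg15, Oasl1 and Ifi27l2a were 0.17, 0.15 and 0.17. Ifi44 was at 0.37 without IL-4Rα+/+ library 3, and Ifit1 at 0.53 without IL-4Rα+/+ library 2. IL-4Rα+/+ library 1 was also the IL-4Rα+/+ library without Y chromosome transcripts. Among the 4 libraries with Y chromosome transcripts, 2 per genotype, 16 of the 35 genes were above 0 (against 50.8% of all genes) and 19 below, with a median of -0.07.

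**Figure D5:**
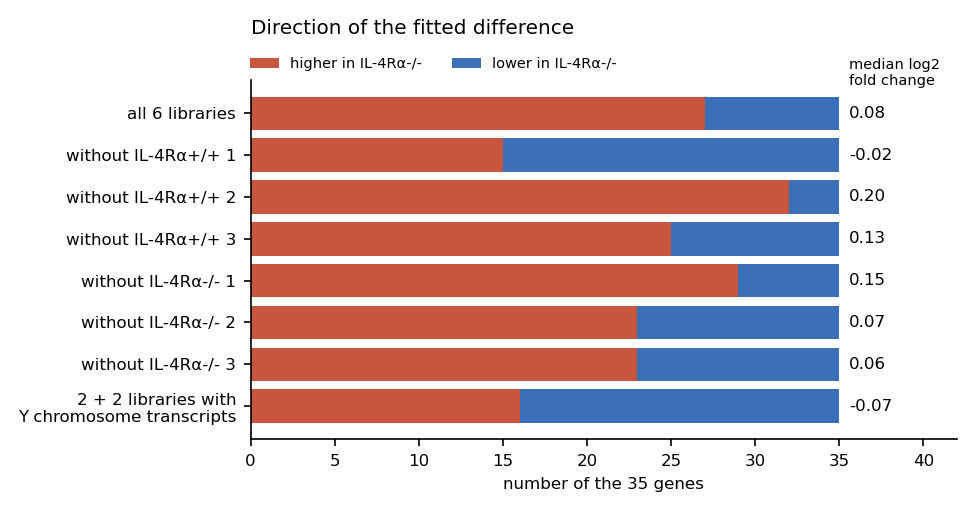
Number of the 35 genes with a fitted log2 fold change above 0 (red, higher in IL-4Rα-/-) or below 0 (blue) with all 6 libraries, without each library in turn, and in the 4 libraries with Y chromosome transcripts, with the median log2 fold change at the right. The split goes from 27 against 8 with all libraries to 15 against 20 without IL-4Rα+/+ library 1. Of all genes tested, 51.5% and 51.6% were above 0 in these fits.

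Markers of several other cell types had higher sums in the IL-4Rα-/- libraries, and edgeR called no marker, whereas DESeq2 called 7 at an adjusted p under 0.15 (3 erythroid, 2 of the eosinophil, basophil and mast cell list, Camp and Igha). All 9 markers of red pulp macrophages had higher fitted values in IL-4Rα-/- libraries, 5 of them at an unadjusted p under 0.05, with sums of 2335.5 to 2609.9 CPM in IL-4Rα+/+ and 2878.1 to 5196.9 CPM in IL-4Rα-/- libraries. Sums of 9 erythroid markers were 57.8 to 129 and 168 to 422 CPM, with 8 of the 9 at an unadjusted p under 0.05 in edgeR and higher. Those of 10 eosinophil, basophil and mast cell markers were 81.8 to 95.3 and 137 to 220 CPM, with 7 of the 10 at an unadjusted p under 0.05 and higher. Most of that sum was Ccr3 (52.7 to 137 CPM over the 6 libraries). The eosinophil genes Prg3, Epx and Siglecf did not reach that p, and Siglecf had a log2 fold change of -0.56. Sums of 7 B and plasma cell markers were 374 to 423 and 678 to 908 CPM, with 2 of the 7 (Jchain and Igha) at an unadjusted p under 0.05 and higher. Of 9 neutrophil markers 8 were tested, 7 had fitted values above 0 and 5 (S100a8, S100a9, Cxcr2, Ngp and Camp) had an unadjusted p under 0.05 and were higher, with a median log2 fold change of 1.90, while the sums of the list overlapped at 56.4 to 237 and 104 to 602 CPM. Ranges also overlapped for 6 conventional dendritic cell markers (266 to 399 and 229 to 334 CPM), 8 T and NK cell markers (42.7 to 107 and 40.0 to 95.4 CPM, mostly Cd4) and 5 platelet markers (2.93 to 3.89 and 3.43 to 7 CPM). Plasmacytoid dendritic cells, the main producers of type I interferon, had overlapping sums of 8 markers, at 131 to 142 and 117 to 153 CPM. Most of that sum was Tcf4 (90.8 to 116 CPM over the 6 libraries), which many cells express, whereas the more specific Siglech was at 1.30 to 3.55 CPM. The part of these cells in the values of Samhd1, Isg20, Ifi44, Ifi27l2a and Herc6 was not tested.

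The rest of the pathway was read from a list of 102 other genes, of which 79 were tested. None was called. A fold change above 0 was found for 41, against 51.5% of all genes, and 1 below 0 for 38. An unadjusted p under 0.05 was reached by 2 (2.53%), against 8.09% of all genes. Of the 21 interferon genes themselves, 16 had no read in any library and none had enough reads to be tested. Ifng, the type II interferon, was the only ligand with more than 3 reads in a library, with 2, 0 and 2 reads in IL-4Rα+/+ and 2, 1 and 7 in IL-4Rα-/- libraries. Most of their transcripts were thus below the depth of these libraries, which does not show that they were absent.

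The chains of the type I interferon receptor differed little between libraries. Ifnar1 was at 188, 201 and 201 CPM in IL-4Rα+/+ and at 181, 184 and 173 CPM in IL-4Rα-/- libraries. All IL-4Rα-/- libraries lay below all IL-4Rα+/+ libraries, with a log2 fold change of -0.13 ± 0.07 (SE, edgeR adjusted p = 0.639). Ifnar2 was at 145, 144 and 145 CPM and at 152, 151 and 144 CPM, with 0.04 ± 0.06. Among the receptors of other interferons, Ifngr1 and Ifngr2 had -0.17 ± 0.08 and 0.06 ± 0.08, and Ifnlr1, at 0.806 to 2.32 CPM barely expressed, had -0.29 ± 0.44. The kinases Jak1 and Tyk2 had -0.09 ± 0.07 and -0.04 ± 0.10. None of these had an unadjusted p under 0.05.

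The 2 pathway genes with an unadjusted p under 0.05 differed in direction. Irf1, a transcription factor that answers mainly to interferon gamma, was at 292, 269 and 268 CPM in IL-4Rα+/+ and at 250, 245 and 238 CPM in IL-4Rα-/- libraries, a log2 fold change of -0.18 ± 0.07 (SE, edgeR adjusted p = 0.618). The other 5 interferon regulatory factors of the list, Irf2, Irf3, Irf4, Irf5 and Irf8, also had values below 0, down to -0.18, none at an unadjusted p under 0.05. Bst2 (tetherin), which holds budding virus at the cell surface, was at 98.8, 112 and 95.4 CPM and at 110, 135 and 120 CPM, a log2 fold change of 0.26 ± 0.10 (SE, edgeR adjusted p = 0.618). Its genotypes overlapped. The other 47 interferon stimulated genes of this list that were tested had log2 fold changes from -0.46 for Ifi205 to 0.41 for Ms4a4c, none at an unadjusted p under 0.05 in edgeR. In DESeq2, Phf11b joined Irf1 and Bst2 with an unadjusted p of 0.042. That made 3 of the 84 pathway genes it tested, against 4.70% of all its genes, which were not filtered on low counts. None was called.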

How the data were processed

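Splenic monocytes of 6 mice were sequenced by the authors as directional, poly(A)-selected libraries with single-end reads of 75 bases. The authors aligned the reads with STAR to GRCm38 and deposited the raw count of uniquely mapped reads per Gencode gene for each library, without normalization. Which strand column was kept is not given in the sources used here. The submitters' processing notes name STAR 2.6.1a and DESeq2 1.22.2. Symbols came from GENCODE M21, which held 55240 of the 55421 gene identifiers, and the summary rows of STAR (unmapped, multimapping, outside genes, ambiguous) stayed out of library sizes. Reads outside genes were 10.3 to 11.7% of all reads in IL-4Rα+/+ and 8.87 to 9.68% in IL-4Rα-/- libraries.

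For the comparison, edgeR 4.0.16 (R 4.3.3) was run on the counts as its quasi-likelihood test, with TMM scaling, filterByExpr at a minimum count of 10 and genotype as the only term, over all 13849 genes kept. P-values were adjusted by Benjamini-Hochberg with the study's threshold of 0.15. RPKM values are CPM per kilobase of merged exons. DESeq2 1.42.0, RLE size factors, no filter, a minimum count of 50, a replicate block, Xist as a covariate and leaving out each library were alternatives, and the 4 libraries with Y chromosome transcripts were added after seeing the data. The scripts were tested on simulated counts. Same-numbered libraries correlated at 0.185, -0.271 and -0.296 in their deviations over genes, so the numbers were not taken as pairs. No pair of replicates agreed within sampling noise. Named were members with an unadjusted p under 0.05, with ranges that did not overlap, the 5 largest changes, the 3 highest and lowest levels, and 7 core genes (Irf7, Irf9, Stat2, Isg15, Usp18, Mx1 and Ifit3). A gene of the pathway list is not reported here. The genes, lists and tests were chosen with earlier results of these data known.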

Additional observations from a re-analysis of the deposited data

How the results depend on the processing

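No interferon stimulated gene passed an adjusted p of 0.15 under any alternative. DESeq2 called 81 genes of all tested where edgeR called 0, among them Il4ra (log2 fold change -1.67, adjusted p = 0.0109). With a replicate block, 6 of the 35 genes had an unadjusted p under 0.05, against 5.52% of all genes. These were Ifit1, Oasl1, Isg15, Usp18, Ifi27l2a and Rtp4, all higher. In that fit 5 of the 35 were below 0 and Ifit3b was at 0.00, while 51.9% of all genes were above 0. The block rests on shared replicate numbers only, whose correlations above do not pair the libraries. With Xist as a covariate, 0 genes of the pathway list had an unadjusted p under 0.05, against 2 without it. The share of all genes in that fit was 6.84%. In the 4 libraries with Y chromosome transcripts, 0 of the 35 genes had an unadjusted p under 0.05, against 5.12% of all genes. There 19 of the 35 were below 0, while 50.8% of all genes were above 0. The log2 fold changes of Irf7 (-0.07), Stat2 (-0.11), Mx1 (-0.27) and Ifit3 (-0.12) turned sign. The cause of these shifts was not tested.

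Leaving out 1 library at a time, 1 to 4 of the 35 genes had an unadjusted p under 0.05, 3 to 20 were below 0, and 0 to 6 pathway genes had an unadjusted p under 0.05. Over all genes, the same fits gave 4.44 to 12.1% at an unadjusted p under 0.05 and 48.4 to 51.6% above 0. Log2 fold changes that turned sign ran from -0.08 to 0.14 for Stat2, -0.12 to 0.24 for Mx1, -0.16 to 0.44 for Ifit3, -0.31 to 0.38 for Ifit3b, -0.02 to 0.16 for Irf7, 0.00 to 0.10 for Ifngr2, -0.12 to 0.01 for Tyk2 and -0.54 to 0.03 for Ifnlr1. Of 312 values of 24 named genes under the alternatives, 19 turned sign. With 3 mice per genotype, the standard errors of the 35 genes ran from 0.07 to 0.42 on the log2 scale, which limits what difference could be called.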
